A study of Mus musculus with 21 samples.

Results

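The miR-506 family is a group of related microRNAs encoded on the mouse X chromosome between the protein-coding genes Slitrk2 and Fmr1. Its members were the mature entries of the deposited table named miR-463, miR-465, miR-470, miR-471, miR-741, miR-742, miR-743, miR-871, miR-878, miR-880, miR-881, miR-883, miR-201, miR-547 or miR-509, whatever the letter or arm. This gave 34 of 1556 mature entries, since 14 of the 15 numbers had an entry and miR-509 was not listed. The 3p arms of miR-465a, miR-465b and miR-465c shared 1 entry, written here as miR-465a/b/c-3p.

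The study sequenced small RNA from 7 kinds of primary mouse cell, with 3 libraries each and 21 in all. Peritubular myoid (PTM) cells, the contractile cells around the seminiferous tubule, germ cells, Sertoli cells and Leydig cells were isolated from the testis. Smooth muscle cells from blood vessel (VSMC), intestine (ISMC) and trachea (TSMC) were bought from a supplier. All groups were C57BL/6J, none was treated, and all were cultured in DMEM/F12 plus 10% fetal bovine serum. The labels give no age, and no group carries an altered allele.

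A microRNA is cut from a hairpin precursor, whose strands give a 5p and a 3p arm, and the loaded arm represses messenger RNAs that pair with its seed, bases 2 to 8 from its 5′ end. The miR-506 family is a fast-evolving, X-linked family known for high levels in the testis of mammals, and mice that lack its members make sperm that compete poorly. Among its members, loss of the miR-465 cluster in mice has been linked to a skewed sex ratio of pups, miR-470 was described as a repressor of Nanog in differentiating mouse embryonic stem cells, miR-471-5p as an androgen-responsive regulator in Sertoli cells, and miR-743a-3p as a repressor of mitochondrial malate dehydrogenase in mouse neuronal cells.

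The RefSeq and GENCODE annotations of GRCm38, the assembly also called mm10, hold 22 hairpins that carry these numbers, all on the minus strand. None of the 22 overlapped a gene other than a microRNA gene, so all were intergenic. The 19 hairpins on the Slitrk2 side lay within chrX:66776757-66839125, a span of 62.4 kb, and the other 3 (Mir201, Mir547 and Mir509) lay within chrX:67988096-68010179, a span of 22.1 kb on the Fmr1 side. A gap of 1149 kb separated these groups. Slitrk2 was annotated at chrX:66649318-66661393 and Fmr1 at chrX:68678541-68717963, both on the plus strand.

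The mature sequences of abundant entries follow, from RefSeq on GRCm38.p6, 5′ to 3′, with the seed in capitals. They come first because the leading pair, miR-470-5p and miR-465a/b/c-3p, carried most of the family's tags.
miR-470-5p: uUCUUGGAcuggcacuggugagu
miR-465a/b/c-3p: gAUCAGGGccuuucuaaguaga
miR-871-3p: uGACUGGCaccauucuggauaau
miR-471-3p: uGAAAGGUgccauacuauguau
miR-741-3p: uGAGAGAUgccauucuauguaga
The 5p arms of miR-465 share the seed AUUUAGA, and their sequences are given because libraries differed in which of them was counted, and miR-465c-5p was among the abundant entries. miR-465c-5p and miR-465b-5p differ by 1 base, C13U, counted from the 5′ end with the base of miR-465c-5p first.
miR-465c-5p: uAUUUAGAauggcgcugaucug
miR-465b-5p: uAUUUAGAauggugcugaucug
miR-465a-5p: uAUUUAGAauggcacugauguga
Other seeds held by 2 entries each were AUUCAGA, in miR-743a-5p and miR-871-5p, AAAGACA, in miR-743a-3p and miR-743b-3p, and AACUGCA, in miR-883a-3p and miR-883b-3p. These pairs are shown because hairpins of different number, or near-copies, give the same seed.
miR-743a-5p: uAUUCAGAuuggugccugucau
miR-871-5p: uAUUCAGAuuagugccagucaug
miR-743a-3p: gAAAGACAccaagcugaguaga
miR-743b-3p: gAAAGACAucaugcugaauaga
The most abundant arms of the Fmr1-side hairpins and the Slitrk2-side entry with the clearest germ cell difference complete the set.
miR-547-3p: cUUGGUACaucuuugagugag
miR-201-5p: uACUCAGUaaggcauuguucuu
miR-883a-5p: uGCUGAGAgaaguagcaguuac
miR-470-5p, the entry with the most tags, lies at chrX:66813995-66814017, and miR-547-3p at chrX:67988383-67988403. How the authors assigned a tag that fits several near-identical entries is not given in the sources used here, so the division of tags among miR-465, miR-743 and miR-883 copies is uncertain.

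Each library held 18.1 M to 26.1 M tags of all classes (M, 1000000 tags). Mature microRNAs made up 4.04 M to 14.6 M tags in the libraries of 6 types, but 0.525 M to 0.958 M in the 3 germ cell libraries, which therefore stand apart. Their TMM scaling factors, which adjust library sizes for composition, were 2.54, 1.99 and 1.26, against 0.632 to 1.14 elsewhere. Levels are given as CPM, counts per 1000000 mature tags after TMM scaling, which is not a level per length. A list of 11 entries known from spermatogenic cells (the miR-34b/c and miR-449 families and miR-184) summed to 535 to 826 CPM in PTM cells, 108300 to 264300 CPM in germ cells, 334 to 852 CPM in Sertoli cells, 1139 to 1645 CPM in Leydig cells and 442 to 1033 CPM in the smooth muscle types. Of the 11, miR-449b, miR-449a-3p, miR-449c-3p and miR-184-5p were at 0 in all libraries other than germ cells. The smooth muscle list, the arms of miR-143 and miR-145a, averaged 27810 CPM for PTM cells and 46380 CPM for Sertoli cells, above the 9726 to 17050 CPM of the smooth muscle types, so this list did not set apart the smooth muscle labels. The libraries of a type are not stated to come from separate animals, so p-values measure only the spread between these libraries, which may be technical, and in bulk samples fewer cells of a type and less RNA per cell cannot be told apart.

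The family was abundant in 3 of the 4 testicular types, scarce in Leydig cells and at trace levels in smooth muscle. As a share of mature tags it took 4.38%, 7.96% and 5.47% in PTM cells, 8.32%, 9.22% and 7.27% in germ cells, 5.49%, 7.04% and 6.58% in Sertoli cells, and 0.0314%, 0.0817% and 0.0710% in Leydig cells. The means were 5.94% ± 1.84 in PTM cells, 8.27% ± 0.977 in germ cells, 6.37% ± 0.793 in Sertoli cells and 0.0614% ± 0.0265 in Leydig cells (SD, n = 3 each). The lowest library of the first 3 types was far above the highest Leydig library, and the germ cell and PTM ranges overlapped. The smooth muscle means were 0.00129% in VSMC, 0.00261% in ISMC and 0.00745% in TSMC, where 1 library reached 0.0135% and stood above the other TSMC libraries.

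Among marker lists of other cells, the epithelial one followed these levels, and the rest did so in part or not. A list of 10 epithelial entries (the miR-200 family, miR-141, miR-429 and miR-205) summed to 125.3 to 452.2 CPM in PTM cells, 388.8 to 750.3 CPM in germ cells, 119.6 to 390.2 CPM in Sertoli and 24.4 to 38.2 CPM in Leydig cells, against 5.24 to 17.8 CPM in smooth muscle. Of these, miR-200c-5p was at 0 in all 4 testicular types and miR-141-5p in PTM, Sertoli and Leydig cells. The arms of miR-143 and miR-145a averaged 1621 CPM in germ cells and 7032 CPM in Leydig cells, lower than in PTM and Sertoli cells. Both arms of miR-202, known from somatic cells of the gonad, summed to 60.05 to 1631 CPM in the testicular types and 0.170 to 1.78 CPM in smooth muscle. They averaged 178.7 CPM in germ cells, below the 665.3 CPM of Leydig cells. The Leydig list, miR-1247, averaged 1509 CPM in Leydig cells and 14.4 CPM or less in every other type. The mesenchymal list (miR-199a, miR-199b and miR-214) averaged 7159 CPM in PTM cells and 907.2 CPM in germ cells. It averaged 15970 CPM in Sertoli cells, 18560 CPM in Leydig cells and 10260 to 18760 CPM in smooth muscle. The endothelial list (miR-126a and miR-126b) averaged 1789 CPM in PTM, 631.4 CPM in germ, 330.6 CPM in Sertoli and 276 CPM in Leydig cells. In smooth muscle it averaged 205.9 to 3460 CPM. The haematopoietic list averaged 4042, 578.5, 2103 and 2730 CPM in the same 4 types, and 1130 to 2582 CPM in smooth muscle. The part of these lists in the family's level was not tested.

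The order of the testicular types depended on the denominator. Per 1000000 tags of all classes the family averaged 23162 tags in PTM cells, 2443 in germ cells, 25029 in Sertoli cells and 300.5 in Leydig cells, with 7.42, 11.3 and 27.0 in VSMC, ISMC and TSMC. Germ cells, highest per mature tag, were thus about 10 times lower than PTM and Sertoli cells per tag of any class, and every germ cell library lay below every PTM and Sertoli library on that scale. After TMM scaling, used for the CPM levels and tests, the summed family averaged 45680 CPM in germ cells. That was also below PTM (76230 CPM) and Sertoli cells (77930 CPM). Germ cell library 3 (57810 CPM) still passed PTM libraries 1 and 3 (54220 and 55200 CPM).

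**Figure D1:**
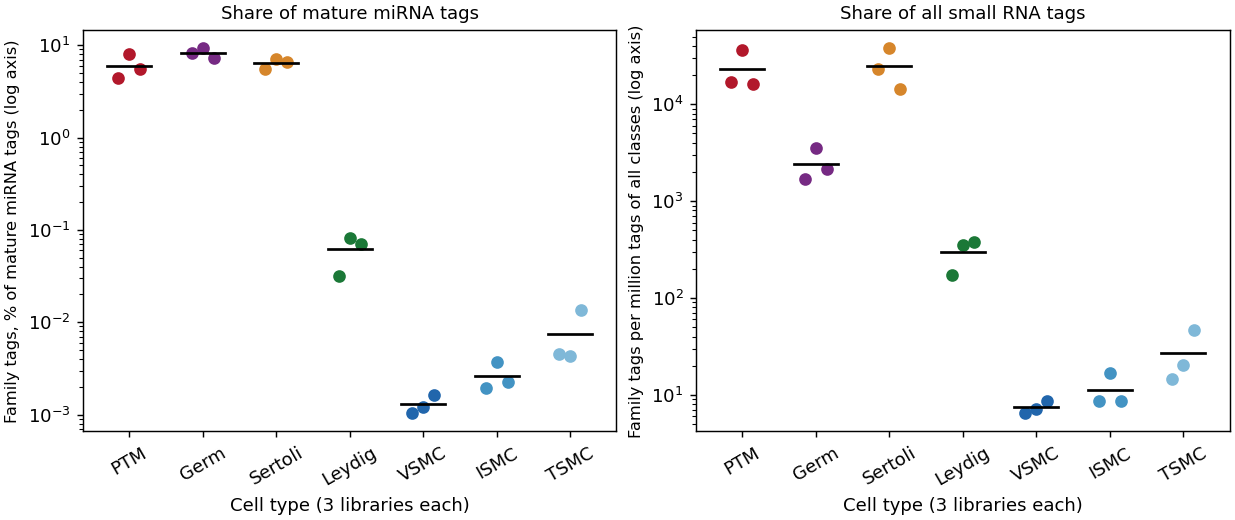
Family tags of each library as a percent of mature microRNA tags (left) and per 1000000 tags of all classes (right), both on log axes; points are libraries and bars are means of 3. PTM cells averaged 5.94% of mature tags, below germ cells at 8.27%, but 23162 per 1000000 tags of all classes, above germ cells at 2443.

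2 entries made up most of the family. miR-470-5p supplied 70.9% ± 2.99 of family tags in PTM cells, 38.8% ± 7.54 in germ cells, 71.3% ± 6.15 in Sertoli cells and 51.5% ± 7.36 in Leydig cells (SD, n = 3 each). miR-465a/b/c-3p supplied 23.2%, 40.7%, 22.8% and 22.8% in the same 4 types. The lowest PTM library (68.9%) and the lowest Sertoli library (66.7%) were above the highest germ cell library (46.7%) in the share of miR-470-5p, so this share, which does not depend on scaling, set germ cells apart from PTM and Sertoli cells. The germ cell range, 31.7% to 46.7%, did overlap Leydig library 1 at 43.0% and the ISMC libraries at 38.7% to 47.2%. Among smooth muscle the mean share of miR-470-5p was 51.7% in VSMC, 42.4% in ISMC and 47.4% in TSMC.

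miR-470-5p had 37340, 88620 and 38320 CPM in PTM cells, 12400, 21700 and 18350 CPM in germ cells, 42470, 69670 and 52990 CPM in Sertoli cells, and 203.0, 587.3 and 623.8 CPM in Leydig cells. On this TMM-scaled level the PTM and Sertoli libraries overlapped each other, lay above all germ cell libraries, and all 3 types lay above Leydig cells. The gap to germ cells depended on the scaling. With mature totals and no scaling factor, the log2 fold change was 0.38 in PTM over germ cells. In germ over Sertoli cells it was -0.48, and neither had an adjusted p under 0.05 (edgeR). The log2 fold change over Leydig cells was 6.86 ± 0.64 (SE) in PTM cells, 5.21 ± 0.60 in germ cells and 6.87 ± 0.64 in Sertoli cells, with adjusted p of 3.5e-07, 3.2e-07 and 7.2e-08 (edgeR quasi-likelihood test, Benjamini-Hochberg over all tested microRNAs). In smooth muscle the entry had 5.05, 5.56 and 8.57 CPM in VSMC, 7.89, 13.0 and 9.62 CPM in ISMC, and 22.3, 17.5 and 65.3 CPM in TSMC. Leydig cells were above these 9 libraries without overlap, by a log2 fold change of 5.16 ± 0.38 (adjusted p = 3.7e-10).

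miR-465a/b/c-3p had 13610, 26480 and 12380 CPM in PTM cells, 11350, 18540 and 27450 CPM in germ cells, 17500, 20830 and 13570 CPM in Sertoli cells, and 76.0, 318.0 and 246.6 CPM in Leydig cells. The first 3 types overlapped one another and none of their libraries came near Leydig cells. The log2 fold change over Leydig cells was 6.36 ± 0.62 in PTM cells, 6.48 ± 0.63 in germ cells and 6.34 ± 0.62 in Sertoli cells (adjusted p = 4.3e-07, 5.1e-08 and 1.1e-07). Smooth muscle libraries held 2.94 to 31.2 CPM, and the log2 fold change of PTM cells over them was 11.09 ± 0.46 (adjusted p = 1.2e-14).

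**Figure D2:**
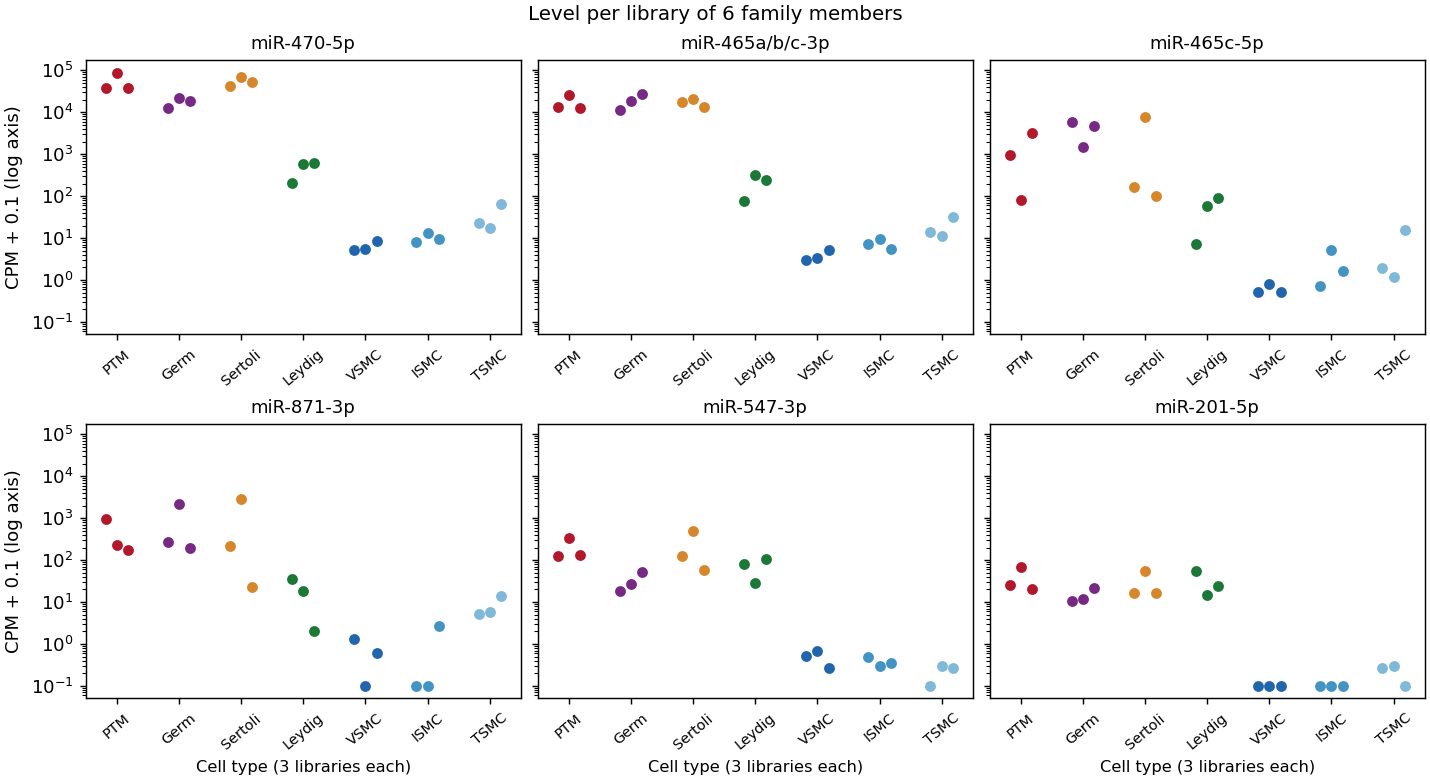
CPM + 0.1 of 6 members in every library on a log axis, 1 panel per member, with points coloured by cell type. miR-470-5p and miR-465a/b/c-3p spread less within PTM and Sertoli cells than miR-465c-5p and miR-871-3p did, and the Leydig libraries of miR-547-3p and miR-201-5p lay near those of PTM cells.

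Of the 34 entries, 28 had at least 10 counts in at least 3 libraries and were tested within the 846 mature entries that passed this filter. All 28 differed among the 7 types at an adjusted p under 0.05, as did 80.7% of all entries tested. Of the 6 entries left out, miR-463-3p reached 9 counts in any library, miR-465d-5p 1, miR-742-5p 8, miR-883b-3p 6 and miR-471-5p 28. miR-883a-3p reached 26.5 CPM in Sertoli library 2, but 10 counts in no more than 2 libraries. The other arm of each of these 6 hairpins was tested. Most tested members reached 10 counts in no smooth muscle library and in at most 2 Leydig libraries. They passed the filter only with counts from PTM, germ or Sertoli cells. The numbers of members called higher in those types than in Leydig cells or smooth muscle were therefore partly set by the filter.

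PTM cells and Sertoli cells were not told apart by the family. None of the 28 tested members passed the edgeR test in PTM over Sertoli cells, where 9.93% of all tested entries were called higher and 1.42% lower. 0 members had an unadjusted p under 0.05, and DESeq2 and limma-voom also called 0. The median log2 fold change was 0.12 over the members and 0.19 over all tested entries. This does not show equal levels: single members ranged from -2.05 to 0.96. Beside this result, the spermatogenic list had similar summed levels in both types, as given above, and its part in the family's level was not tested; 4 of its 11 entries were at 0 in both types.

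Most of the family was higher in PTM cells than in Leydig cells. In PTM over Leydig cells 20 of 28 tested members were called higher and 0 lower, against 7.80% and 8.75% of all tested entries, with a median log2 fold change of 6.14 over the members and -0.06 over all. miR-743a-3p averaged 244.5 CPM in PTM cells and 1.58 CPM in Leydig cells, a log2 fold change of 7.26 ± 1.03 (adjusted p = 7.5e-05). miR-471-3p averaged 272.5 CPM in PTM cells and 1.87 CPM in Leydig cells, a log2 fold change of 7.18 ± 0.87 (adjusted p = 5.3e-06). miR-741-3p averaged 310.1 CPM in PTM cells and 3.37 CPM in Leydig cells, a log2 fold change of 6.51 ± 1.10 (adjusted p = 3.7e-04). miR-883b-5p and miR-881-3p had 3 counts each over the Leydig libraries. Their ratios of PTM to Leydig CPM were 236 for miR-883b-5p (95% counting interval 80.4 to 1150) and 164 for miR-881-3p (55.7 to 799). Without PTM library 2 these ratios were 142.8 and 83.2, and without Leydig library 1 they were 153.2 and 106.4. Without Leydig library 3, which held the 3 counts of miR-883b-5p, that of miR-881-3p was 328.

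Sertoli cells gave a like picture. In Sertoli over Leydig cells 24 of 28 members were called higher and 0 lower, against 8.87% and 16.5% of all tested entries, and the medians were 6.05 and -0.11. miR-471-3p averaged 211.4 CPM in Sertoli and 1.87 CPM in Leydig cells, a log2 fold change of 6.81 ± 0.85 (adjusted p = 1.5e-06). miR-880-3p averaged 46.5 CPM in Sertoli and 0.395 CPM in Leydig cells, a log2 fold change of 6.85 ± 2.19 with an adjusted p of 0.047. That call was lost without any 1 of Sertoli libraries 2 or 3, the 3 Leydig libraries, or germ cell libraries 1 or 3, where the adjusted p was 0.057 to 0.16 and the log2 fold change 4.94 to 7.86. The same call was lost with tags of all classes as library size (adjusted p = 0.054) and with no count filter (0.11). miR-741-5p was at 0 in all Leydig libraries and at 40 counts in Sertoli cells, at least 16.1-fold higher when the Leydig group is set to 3 counts. That bound was 9.91-fold without Sertoli library 2 and 10.4-fold without Leydig library 1.

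Germ cells were above Leydig cells for the Slitrk2-side members. In germ over Leydig cells 24 of 28 members were called higher and 1 lower, against 20.9% and 42.3% of all tested entries, with medians of 6.90 over the members and -2.14 over all. miR-471-3p averaged 825.9 CPM in germ cells and 1.87 CPM in Leydig cells, a log2 fold change of 8.77 ± 0.93 (adjusted p = 1.5e-07). miR-741-5p and miR-470-3p were at 0 in Leydig cells and were at least 95.5-fold and at least 54.3-fold higher in germ cells. The bound of miR-741-5p rested on germ cell library 3, which held 43 of its 51 germ cell counts, and was 19.5-fold without it, 154-fold without germ cell library 2 and 62.0-fold without Leydig library 1. That of miR-470-3p was 35.3-fold without Leydig library 1. The ratio of germ to Leydig CPM was 534 for miR-883b-5p (95% counting interval 181 to 2600), and 346 without Leydig library 1. With tags of all classes as the library size, 21 members were called higher and 4 lower. The medians were then 4.16 over the members and -4.42 over all tested entries.

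**Figure D3:**
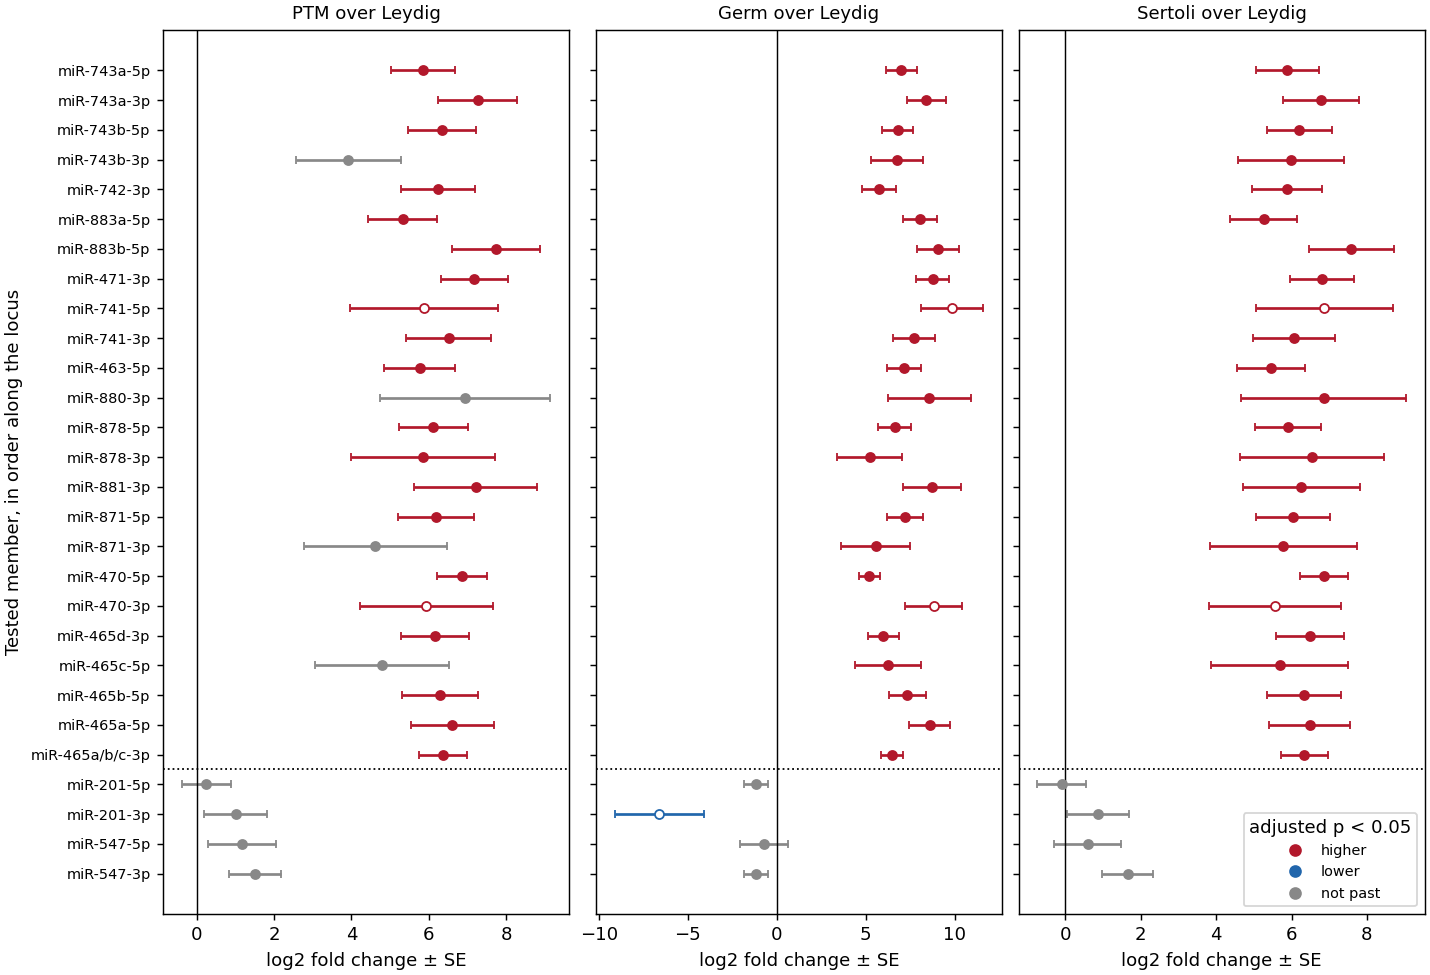
Log2 fold change ± SE of the 28 tested members over Leydig cells in PTM cells, germ cells and Sertoli cells, in order along the locus from top to bottom; the dotted line marks the gap between Slitrk2-side and Fmr1-side hairpins. Colours give the call at an adjusted p under 0.05, and open points had 0 counts in 1 of the groups, so their fitted value is no bound. The 24 members above the line lie at 3.92 to 9.88, and the 4 below it lie at 1.65 or lower.

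Members of the 2 groups of hairpins differed in their fold change over Leydig cells. Of the 24 tested Slitrk2-side members, 20 were called higher in PTM cells than in Leydig cells, 24 in germ cells and 24 in Sertoli cells. Of the 4 Fmr1-side members (both arms of miR-201 and miR-547), 0 were called higher than Leydig cells in any of the 3 types. The median log2 fold change over Leydig cells was 6.21 for the Slitrk2-side and 1.09 for the Fmr1-side members in PTM cells, 7.20 and -1.15 in germ cells, and 6.23 and 0.72 in Sertoli cells. Fmr1-side entries made up 12.3% of the family's tags in Leydig cells, against 0.318% in PTM cells, 0.0979% in germ cells and 0.363% in Sertoli cells, with libraries pooled. The Leydig libraries stood at 29.7%, 4.26% and 11.6%, and the pooled share was 8.16% without Leydig library 1. The highest library of the other 3 types was Sertoli library 2 at 0.527%. The Fmr1-side members are arms of the neighbouring hairpins Mir201 and Mir547, so they are not independent of one another. The difference between the 2 groups of hairpins was not itself tested.

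miR-547-3p, singled out after its values were seen, had 127.4, 341.2 and 135.5 CPM in PTM cells, 18.02, 26.3 and 52.7 CPM in germ cells, 123.8, 488.9 and 57.0 CPM in Sertoli cells, and 79.9, 28.9 and 104.7 CPM in Leydig cells. Every PTM library was above every Leydig library, while germ and Sertoli libraries overlapped Leydig cells. The log2 fold change over Leydig cells was 1.5 ± 0.67 in PTM cells (adjusted p = 0.13), -1.15 ± 0.68 in germ cells (adjusted p = 0.14) and 1.65 ± 0.67 in Sertoli cells (adjusted p = 0.082). The value in germ cells turned to 0.08 with RLE scaling and to 0.21 with mature totals. Sertoli cells over Leydig cells passed the threshold in 7 of 31 alternatives, among them DESeq2 (adjusted p = 0.0087), with adjusted p over all 31 of 0.0087 to 0.71, and PTM cells over Leydig cells in 2 of 31 (0.038 to 0.40).

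miR-201-5p, chosen in the same way, had 25.2, 67.1 and 20.6 CPM in PTM cells, 10.51, 11.6 and 21.7 CPM in germ cells, 16.5, 55.7 and 16.0 CPM in Sertoli cells, and 56.3, 14.6 and 24.1 CPM in Leydig cells. All 4 types overlapped. It was at 0 in VSMC and ISMC and had 3 counts in TSMC, and the ratio of Leydig to smooth muscle CPM was 989 (95% counting interval 337 to 4810), 594 without Leydig library 1 and 2641 without TSMC library 2. Its other arm, miR-201-3p, was at 0 in all germ cell libraries and had mean levels of 3.22 CPM for PTM, 2.89 CPM for Sertoli and 1.58 CPM for Leydig cells. With germ cells set to 3 counts, it was at least 4.41-fold higher in PTM cells than in germ cells, and at least 4.01-fold and 2.25-fold lower in germ cells than in Sertoli and Leydig cells. Without germ cell library 2 these bounds were 2.41-fold, 2.20-fold and 1.23-fold, without Sertoli library 2 the one against Sertoli cells was 1.88-fold, and without Leydig library 1 the one against Leydig cells was 1.37-fold. All 3 differences were called, but the call in PTM over germ cells was lost without germ cell library 1 or 2 (adjusted p = 0.059 and 0.051). The call in germ over Sertoli cells was lost without either of the same libraries (0.064 for both) and with mature totals (0.051). The call in germ over Leydig cells was lost with RLE scaling (0.12), mature totals (0.13) and DESeq2 (0.20), and without any 1 of the 3 germ cell libraries, PTM library 1, Sertoli library 3 or Leydig libraries 1 or 2 (0.050 to 0.13).

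PTM and germ cells differed in miR-470-5p, in Fmr1-side entries and in several minor ones. In PTM over germ cells 3 of 28 members were called higher (miR-470-5p, miR-547-3p and miR-201-3p) and 6 lower, against 40.8% and 16.2% of all tested entries. The median log2 fold change was -1.11 over the members and 1.79 over all, so the family sat below the general shift between these types. miR-470-5p, with the values given above, had a log2 fold change of 1.65 ± 0.51 (adjusted p = 0.0090). miR-547-3p had a log2 fold change of 2.65 ± 0.71 (adjusted p = 0.0030). miR-465a/b/c-3p did not pass, with a log2 fold change of -0.13 ± 0.49 (adjusted p = 0.83).

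The 6 members lower in PTM cells than in germ cells were all on the Slitrk2 side, which holds 24 of the 28 tested members. Of all tested entries, 16.2% were lower, so no link with position is drawn from this. miR-883a-5p had 3.97, 14.95 and 3.76 CPM in PTM cells and averaged 50.2 CPM in germ cells, where the 3 libraries were all higher, and the log2 fold change was -2.72 ± 0.69 (adjusted p = 0.0026). miR-741-5p, whose libraries overlapped, averaged 0.962 CPM in PTM cells and 16.4 CPM in germ cells, with a log2 fold change of -4.00 ± 1.12 (adjusted p = 0.0056). miR-470-3p, the rare arm of the miR-470 hairpin, averaged 1.01 CPM in PTM cells and 7.77 CPM in germ cells, a log2 fold change of -2.90 ± 1.02 (adjusted p = 0.023). miR-743b-3p, miR-465a-5p and miR-471-3p followed at -2.87 ± 1.16, -1.99 ± 0.82 and -1.60 ± 0.67 (adjusted p = 0.045, 0.047 and 0.046). Low-count arms in this set rest on few tags: miR-741-5p had 18 counts in PTM cells and 51 in germ cells.

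Germ over Sertoli cells gave much the same entries in the other direction, but both comparisons use the same germ cell libraries. Here 5 of 28 members were called higher and 3 lower, against 18.2% and 32.2% of all tested entries, and the medians were 0.92 and -1.14. The 5 higher in germ cells were miR-883a-5p (log2 fold change 2.79 ± 0.69, adjusted p = 0.0024), miR-470-3p (3.26 ± 1.03, 0.015), miR-741-5p (3.01 ± 1.05, 0.023), miR-471-3p (1.96 ± 0.68, 0.019) and miR-465a-5p (2.12 ± 0.82, 0.039). The 3 lower were miR-470-5p at -1.65 ± 0.51 (adjusted p = 0.0095), miR-547-3p at -2.80 ± 0.71 (adjusted p = 0.0023) and miR-201-3p, given above as a bound.

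How many members differed between germ cells and the PTM or Sertoli cells rested on the scaling and on single libraries. With tags of all classes as the library size, PTM over germ cells gave 11 higher and 0 lower, and the median of all tested entries stood at 4.09 and of the members at 1.5. On the same scale germ over Sertoli cells gave 0 higher and 11 lower, with medians of -3.43 over all and -1.80 over the members. RLE scaling moved the other way, to 2 higher and 16 lower in PTM over germ cells and to 13 higher and 2 lower in germ over Sertoli cells. It also moved the medians over all tested entries, to 0.69 and -0.25 in these contrasts. The medians over the members were then -2.21 and 1.84. The share of all tested entries called was not tallied under these alternatives. The 9 calls in PTM over germ cells became 5 without PTM library 1, 14 without PTM library 2, 5 without PTM library 3 and 4 without germ cell library 3. The 8 calls in germ over Sertoli cells became 4 without Sertoli library 1, 13 without Sertoli library 2 and 5 without germ cell library 3.

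Several of these calls were lost singly. miR-470-5p in PTM over germ cells was no longer called with RLE scaling (0.44), mature totals (0.38), DESeq2 (0.44) or a filter of 100 counts (0.96), nor without PTM library 2 (0.97) or germ cell library 1 (1.03) or 3 (1.32), with adjusted p over all 30 alternatives from 1.2e-06 to 0.51. In germ over Sertoli cells it was lost with the same 4 settings and without germ cell library 1 (-1.07) or 3 (-1.37), with adjusted p from 1.2e-06 to 0.40. miR-741-5p stood at -1.63 in PTM over germ cells and 0.66 in germ over Sertoli cells without germ cell library 3, and was then not called in either. In PTM over germ cells miR-470-3p, miR-743b-3p, miR-465a-5p and miR-471-3p were each lost without PTM library 1 or 3. miR-743b-3p, miR-465a-5p and miR-471-3p were lost there without germ cell library 3, miR-743b-3p also without germ cell library 2 or ISMC library 2, and miR-471-3p without VSMC library 2. In germ over Sertoli cells miR-470-3p, miR-741-5p, miR-465a-5p and miR-471-3p were each lost without Sertoli library 1, miR-741-5p and miR-465a-5p also without Sertoli library 3, miR-465a-5p without germ cell library 3, and miR-547-3p without Sertoli library 2 (-1.47). miR-883a-5p stayed called in both contrasts whichever library was left out, with log2 fold changes of -3.80 to -2.40 in PTM over germ cells and 2.61 to 3.25 in germ over Sertoli cells. With tags of all classes as the library size miR-883a-5p was at -0.07 and 0 in the 2 contrasts. Other settings ended calls too. In PTM over germ cells miR-743b-3p was lost with no count filter (adjusted p = 0.099) and miR-465a-5p with the replicate block (0.053). In germ over Sertoli cells miR-741-5p was lost with limma-voom (adjusted p = 0.13) and the replicate block (0.12). There miR-465a-5p was lost with no count filter and with the replicate block (adjusted p = 0.051 for both).

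By mean CPM, 19 of the 28 tested members were highest in germ cells, 5 in Sertoli cells and 4 in PTM cells, with neighbouring types often overlapping. This ranking holds for TMM-scaled levels and depends on that scaling. With tags of all classes as library size, the members' median log2 fold change was 1.5 in PTM over germ cells. On the same scale it was -1.80 in germ over Sertoli cells. The Sertoli set held miR-470-5p, miR-547-3p, miR-871-3p, miR-878-3p and miR-465d-3p, and the PTM set both arms of miR-201, miR-547-5p and miR-742-3p. No member was highest in Leydig cells or in smooth muscle.

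**Figure D4:**
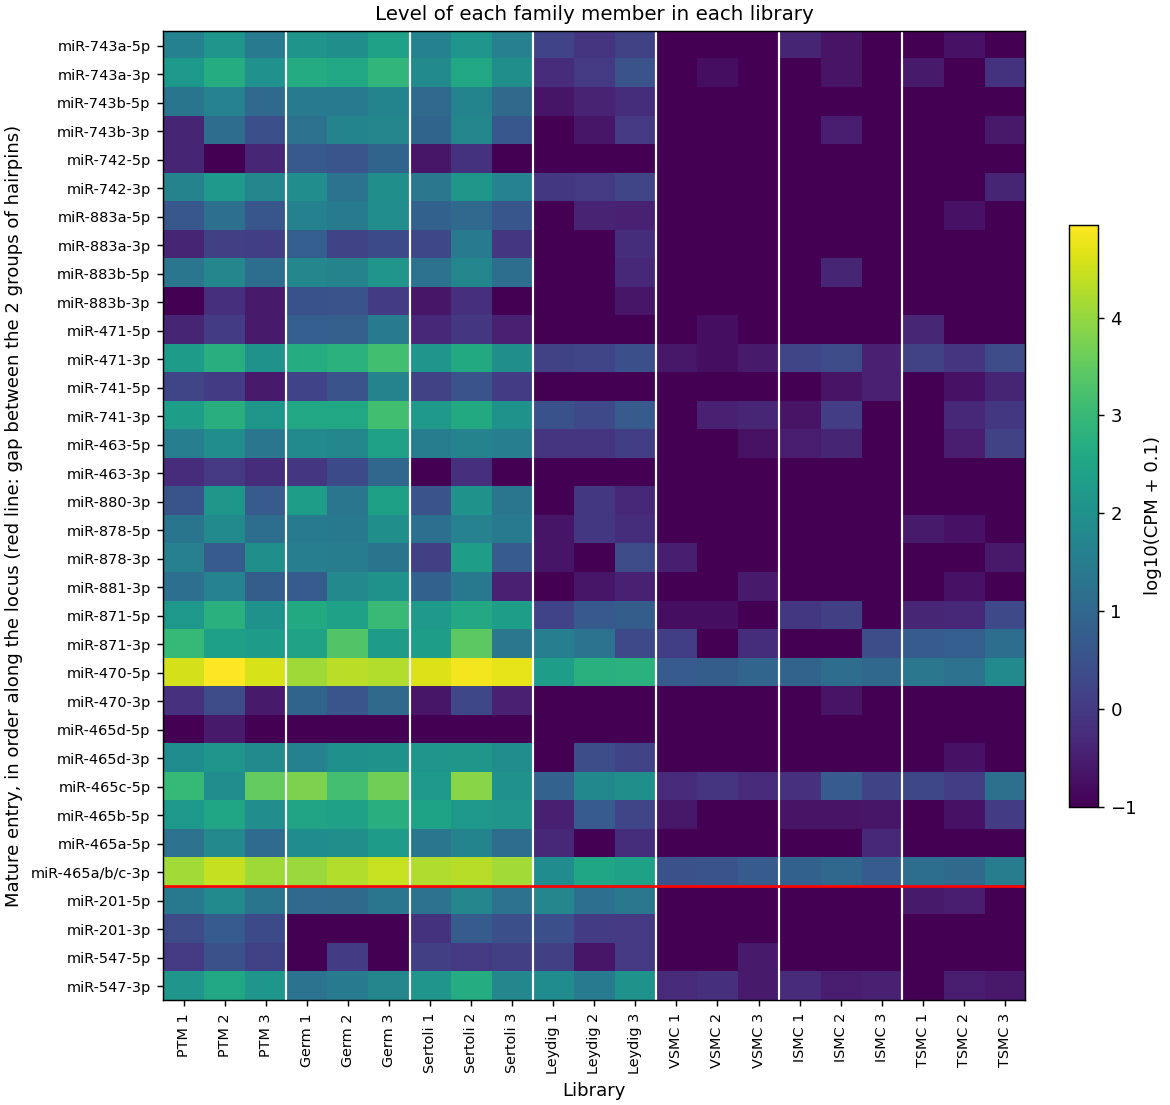
Heat map of log10(CPM + 0.1) for all 34 entries (rows, in order along the locus) in the 21 libraries (columns, 3 per type). The miR-470-5p and miR-465a/b/c-3p rows are the brightest in every type by mean level. In Leydig library 1, miR-547-3p (79.9 CPM) is above miR-465a/b/c-3p (76.0 CPM). Smooth muscle columns are dark in most rows, and the miR-547-3p and miR-201-5p rows stay bright in Leydig cells.

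Smooth muscle cells, the study's non-testicular comparison, held the family at trace levels. All 28 tested members were called higher in PTM cells than in the mean of the 3 smooth muscle types, as were 28.7% of all tested entries, of which 18.8% were lower. The median log2 fold change was 9.84 over the members and 0.22 over all. Sertoli cells also gave 28 of 28 (26.2% of all tested entries higher, 19.3% lower), and germ cells 27 of 28 (26.4% higher, 41.3% lower), the exception being miR-201-3p, at 0 in both groups. Most of these members passed the count filter only with counts from testicular libraries, so these numbers were partly set in advance. miR-470-5p and miR-465a/b/c-3p, with 10 counts or more in all 21 libraries, were called in all 3 contrasts. miR-743a-3p, with 4374 counts in PTM cells and 7 in smooth muscle, had a log2 fold change of 11.54 ± 0.78 (adjusted p = 2.2e-10).

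8 entries had 0 counts in all 9 smooth muscle libraries. Among them, miR-880-3p was at least 1430-fold higher in PTM cells, 4000-fold in germ cells and 1540-fold in Sertoli cells, and miR-743b-5p at least 757-fold, 1020-fold and 768-fold, with smooth muscle set to 3 counts as a group. PTM library 2 held 809 of the 861 PTM counts of miR-880-3p and Sertoli library 2 held 874 of the 985 Sertoli counts. Without PTM library 1 or 2 its bound over smooth muscle was 2156-fold or 125-fold in PTM cells, without Sertoli library 1 or 2 it was 2532-fold or 284-fold in Sertoli cells, and without germ cell library 2 it was 6783-fold in germ cells. The bound of miR-743b-5p was 489-fold in PTM cells without PTM library 2 and 333-fold in Sertoli cells without Sertoli library 2. miR-742-3p had 2 counts in smooth muscle and 1566 in PTM cells, a CPM ratio of 3890 (95% counting interval 1080 to 32200), and 2276 without PTM library 2; no ratio could be had without TSMC library 3, which held both smooth muscle counts. Counting intervals and bounds cover counting error only. With entries at 0 in a group set to their bound, the members' median log2 fold change over smooth muscle was 9.77 in PTM cells, 10.59 in germ cells, 9.71 in Sertoli cells and 3.76 in Leydig cells, and over Leydig cells it was 6.14 in PTM cells, 6.71 in germ cells and 6.01 in Sertoli cells.

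Leydig cells, low among the testicular types, were still above smooth muscle. In Leydig cells over smooth muscle 21 of 28 members were called higher and 0 lower, against 27.7% and 14.9% of all tested entries, with medians of 4.08 and 0.09. All 4 Fmr1-side members and 17 of 24 Slitrk2-side members were among them, with median log2 fold changes of 7.33 and 3.76. miR-547-3p was at 0.570 CPM or less in every smooth muscle library, and its log2 fold change was 8.07 ± 0.58 (adjusted p = 2.7e-10). The spermatogenic list, at 1139 to 1645 CPM in Leydig cells and 442 to 1033 CPM in smooth muscle, was also higher in Leydig cells, and its part in this result was not tested.

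Some members varied far more between libraries of a type than others did. The tagwise dispersion, edgeR's estimate of spread beyond counting error, lay above the 95th percentile of all tested entries for 7 of the 28 members, namely miR-878-3p, miR-871-3p, miR-880-3p, miR-465c-5p, miR-881-3p, miR-743b-3p and miR-741-5p. miR-465a/b/c-3p and miR-470-5p stood at the 52nd and 53.4th percentile. miR-871-3p had 956.3, 227.2 and 178.8 CPM in PTM cells, 270.2, 2155 and 198.4 CPM in germ cells, 216.8, 2798 and 23.2 CPM in Sertoli cells, and 35.1, 18.2 and 1.91 CPM in Leydig cells. Its highest Sertoli library was 121 times its lowest, and the Sertoli and Leydig libraries overlapped.

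miR-465c-5p had 964.4, 81.5 and 3281 CPM in PTM cells, 5900, 1483 and 4673 CPM in germ cells, 163.1, 7805 and 100.8 CPM in Sertoli cells, and 7.24, 58.8 and 90.1 CPM in Leydig cells. PTM library 2 overlapped Leydig cells, while the germ and Sertoli libraries did not. miR-465b-5p, 1 base apart, was steadier at 144.8, 319.3 and 82.5 CPM in PTM cells and 285.4, 151.6 and 124.2 CPM in Sertoli cells. The ratio of miR-465c-5p to miR-465b-5p counts was 6.66, 0.255 and 39.8 in PTM cells, 19.5, 5.71 and 8.13 in germ cells, 0.571, 51.5 and 0.811 in Sertoli cells, and 30, 11.6 and 54.4 in Leydig cells. The libraries with a low ratio were PTM library 2 and Sertoli libraries 1 and 3.

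These uneven members set limits on their calls. Sertoli over Leydig cells was called for miR-465c-5p at 5.69 ± 1.82 (adjusted p = 0.029) and for miR-871-3p at 5.78 ± 1.95 (adjusted p = 0.039). Without Sertoli library 2 these became 1.35 (adjusted p = 0.47) and 2.72 (adjusted p = 0.24). Leaving out any 1 of the 3 Leydig libraries also ended both calls, with adjusted p of 0.069 to 0.13, and miR-871-3p was also lost without VSMC library 3 or TSMC library 1 or 2 (0.051 to 0.053). Both calls were lost with no count filter (0.058 for miR-465c-5p and 0.076 for miR-871-3p). That of miR-871-3p was also lost with tags of all classes (0.057) and the replicate block (0.092). In PTM over Leydig cells neither was called, at 4.79 ± 1.74 (adjusted p = 0.068) for miR-465c-5p and 4.62 ± 1.84 (adjusted p = 0.095) for miR-871-3p. miR-871-3p over smooth muscle was called in Leydig cells at 3.54 ± 1.23 (adjusted p = 0.029), and that call was lost without Leydig library 1 (2.66) or 2 (3.59) and without TSMC library 1 (3.41) or 2 (3.43). The same call was lost with mature totals (adjusted p = 0.054), tags of all classes (0.066), no count filter (0.079) and the replicate block (0.12).

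Sertoli library 2 was the highest of its type for miR-871-3p, miR-465c-5p and miR-547-3p, but also for the summed family (104500 CPM, against 61620 and 67700 CPM). PTM library 2 was likewise highest of its type for the summed family (119300 CPM, against 54220 and 55200 CPM), though not for miR-871-3p or miR-465c-5p. miR-878-3p had 38.0, 5.04 and 92.3 CPM in PTM cells, against 1.25, 212.7 and 5.09 CPM in Sertoli cells, a 170-fold range in the Sertoli libraries. Its 5p arm kept to 20.3, 68.0 and 13.7 CPM in PTM cells and 15.02, 43.4 and 29.8 CPM in Sertoli cells. The arms of 1 hairpin thus differed in how even they were.

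The same arm led in every library counted for most hairpins. In libraries with at least 50 tags over both arms, the 5p arm took 99.2% to 100% of miR-470 tags in all 21 libraries, 96.3% to 100% of miR-463, 93.6% to 100% of miR-883b and 85.1% to 96.4% of miR-201 tags, the last 3 in 9 libraries each. The 3p arm led for miR-471 (5p share 0.150% to 2.05%), miR-741 (0.120% to 3.04%), miR-547 (0% to 3.85%), miR-742 (0% to 8.42%), miR-465d (0% to 0.130%), miR-743a (19.9% to 36.9%) and the miR-465a/b/c hairpins as a group (1.72% to 35.6%, all 21 libraries). Neighbouring hairpins could therefore differ in their leading arm, as miR-883b (5p) and miR-471 (3p) did.

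Arm use was uneven for miR-871, miR-878, miR-743b and miR-883a. The 5p share of miR-871 ran from 3.96% to 90.02% over 14 libraries and was the larger arm in 5 of them, and that of miR-878 ran from 12.9% to 93.1% over 9 libraries. The 5p share of miR-743b was 38.7% to 98.6% over 9 libraries, and that of miR-883a 28.9% to 97.5% over 6. The lowest miR-883a value came from Sertoli library 2. For miR-871 and miR-878 the ranges of PTM, germ and Sertoli cells overlapped. For miR-743b the 5p share was 98.6%, 77.0% and 79.5% in PTM cells, 61.4%, 38.7% and 47.5% in germ cells and 56.7%, 46.4% and 73.8% in Sertoli cells, so the PTM libraries lay above the others, from 57 to 780 tags a library.

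**Figure D5:**
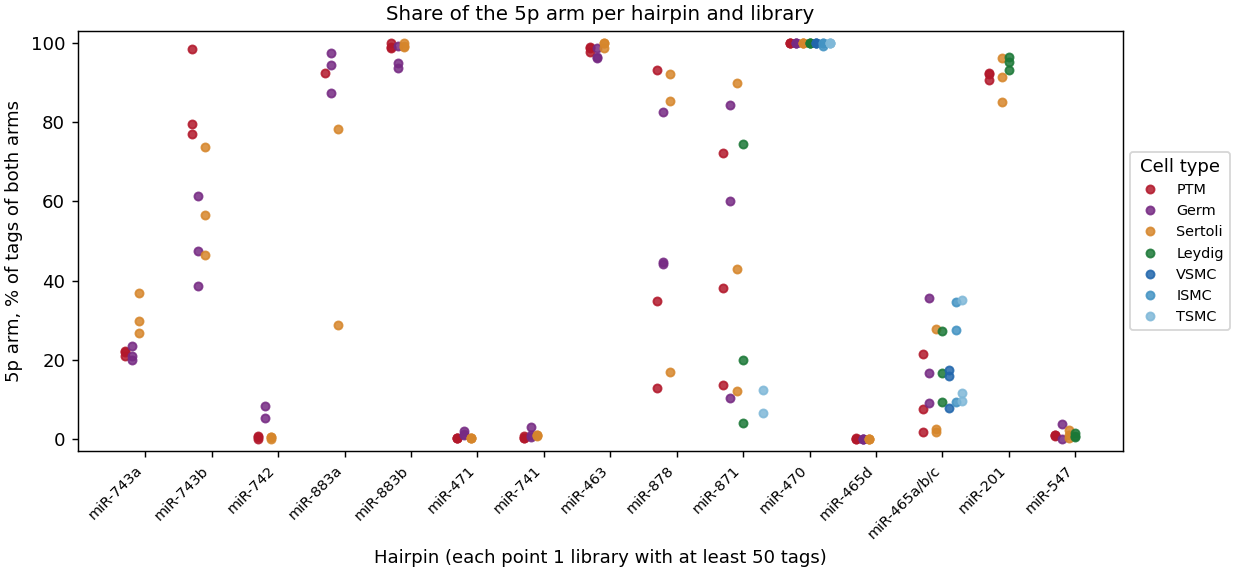
Percent of tags from the 5p arm for each hairpin with both arms listed; each point is 1 library with at least 50 tags over both arms, coloured by cell type. miR-470 stays at 99.2% to 100%, while miR-871 spreads from 3.96% to 90.02% and miR-878 from 12.9% to 93.1%.

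Entries that share a seed add up. The 4 entries with the seed AUUUAGA, all 5p arms of miR-465, summed to 2.23% of family tags in PTM cells, 9.11% in germ cells, 4.23% in Sertoli cells and 6.16% in Leydig cells, with libraries pooled. By library the share was 2.08%, 0.389% and 6.12% in PTM cells, 19.2%, 3.94% and 9.42% in germ cells, 0.764%, 7.66% and 0.352% in Sertoli cells, and 1.66%, 6.09% and 8.21% in Leydig cells. Without PTM library 3 the pooled PTM share was 0.964%, and without Sertoli library 2 the pooled Sertoli share was 0.619%. miR-465c-5p made up 17.6% of these tags in PTM library 2, 34.7% in Sertoli library 1 and 42.3% in Sertoli library 3, and 81.1% or more in the other 9 testicular libraries. The pair with the seed AUUCAGA, miR-743a-5p and miR-871-5p, summed to 352.2 ± 326.0 CPM in PTM cells, 729.7 ± 521.2 CPM in germ cells, 323.8 ± 170.7 CPM in Sertoli and 5.04 ± 2.06 CPM in Leydig cells (SD, n = 3 each). The ranges of mean ± SD of the first 3 types overlapped. Apart from the seeds shown with the sequences, each member had a seed held by no other member.

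Other X-linked microRNAs are set beside the family here. A list of 50 such entries outside the family, of which 33 were tested, gave 1 higher and 2 lower in PTM over Leydig cells, 0 higher and 8 lower in Sertoli over Leydig cells, and 1 higher and 25 lower in germ over Leydig cells, with medians of -0.10, -0.86 and -3.13. Over all tested entries the shares higher and lower were 7.80% and 8.75%, 8.87% and 16.5%, and 20.9% and 42.3%, in the same order. The medians over all tested entries were -0.06, -0.11 and -2.14. In PTM over smooth muscle 17 of the 33 were called higher, and in Leydig cells over smooth muscle 22. Of all tested entries, 28.7% and 27.7% were called higher in these 2 contrasts. miR-652-3p, the most abundant of them, averaged 109400 ± 10020 CPM in PTM cells, 6815 ± 4562 CPM in germ cells, 47610 ± 6480 CPM in Sertoli and 120600 ± 31650 CPM in Leydig cells (SD, n = 3 each). miR-222-3p averaged 4097 CPM in PTM cells, 370.9 CPM in germ cells, 4515 CPM in Sertoli and 3652 CPM in Leydig cells.

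The entries outside the family whose level ran most like the family's summed level were sought over the 7 type means. Of 356 candidates that reached 50 CPM in a type, the nearest were miR-429-3p (Pearson r = 0.983), miR-200b-3p (0.978), miR-342-3p (0.965), miR-203-3p (0.952) and miR-202-5p (0.928). These r values are over 7 points that share libraries and scaling and are a description. miR-429-3p averaged 67.2 CPM in PTM cells, 26.9 CPM in germ cells, 65.8 CPM in Sertoli and 3.84 CPM in Leydig cells, and 0.942 CPM or less in each smooth muscle type. miR-342-3p, at 653.0 CPM in PTM cells, 298.8 CPM in Leydig cells and 114.4 CPM in TSMC, had the smallest fold range of the 5.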

How the data were processed

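Per the labels' protocols, RNA was taken with TRNzol and small RNA libraries were made by a BGI protocol. The submitters' processing notes name Bowtie2 and build mm10. Their versions, the size selection and the treatment of tags that match more than 1 entry were not given in the sources used here. Per the table's headers, the authors deposited a count and a TPM value for each entry and library. Tests used the deposited counts unchanged, and the authors' TPM values gave only the total tags per library. A mature entry entered the tests if 3 or more libraries had 10 or more counts, which 846 did. The model was edgeR's robust quasi-likelihood fit (version 4.0.16, R 4.3.3) after TMM scaling, over 21 libraries with 1 coefficient per type. Entries passing 0.05 after Benjamini-Hochberg adjustment over the 846 were called. SE is the log2 fold change over the square root of F. Smooth muscle is the equally weighted mean of 3 types. The script was tested on simulated counts.

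The members and lists were chosen with earlier results of these data known. Members of at least 1000 CPM in a type are given by library (miR-470-5p, miR-465a/b/c-3p, miR-465c-5p and miR-871-3p). The plan was to give others by range, count and at most 4 examples with the largest called change in a contrast. The examples printed were not always the largest, and some contrasts name more. Further members are named where a small count or a pattern needed it, chosen after their values were seen. Alternatives were RLE scaling, mature totals, tags of all classes, scaling without the family, 2 other count filters, DESeq2 1.42.0, limma-voom (limma 3.58.1), a replicate block, no germ cell libraries, and leaving out each library. Bounds, low-count ratios and shares of family tags without 1 library were added after seeing the data. Sequences, coordinates and neighbours come from RefSeq GRCm38.p6 and GENCODE vM21.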

Additional observations from a re-analysis of the deposited data

How the results depend on the processing

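Of 10 contrasts, counts of members called moved by over 1.5 times in PTM over germ cells and germ over Sertoli cells only, over the alternatives run. PTM over germ cells gave 9 calls, against 18 with RLE scaling, 19 with mature totals, 18 with DESeq2 and 4 to 14 with 1 library left out. Germ over Sertoli cells gave 8, against 15, 17 and 16 with the same settings and 4 to 13 with 1 library left out. The share of all tested entries called was not tallied under these settings. With tags of all classes as denominator the family's share was 2.32% in PTM cells, 0.244% in germ cells, 2.50% in Sertoli cells, 0.0300% in Leydig cells, 0.000742% in VSMC and 0.00113% in ISMC.

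Log2 fold changes that turned sign with tags of all classes as library size were, in PTM over germ cells, miR-465a/b/c-3p (2.41), miR-465a-5p (0.63) and miR-471-3p (1.02), and, in germ over Sertoli cells, the same entries (-2.50, -0.66 and -0.83), with miR-883a-5p at 0. In germ over Leydig cells miR-201-5p turned to 0.16 with RLE scaling, 0.26 with mature totals and 0.16 with DESeq2, and miR-547-3p to 0.08, 0.21 and 0.08. With 1 library left out, miR-465a/b/c-3p in PTM over germ cells ran from -0.79 to 0.06. The cause of these changes was not tested beyond the change of scaling itself.

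Over all types, 12 of 63 same-numbered pairs of libraries correlated above 0.1 (range -0.27 to 0.33). The median was -0.01 for same-numbered and 0 for other pairs. These pairs include bought smooth muscle cells, so the check cannot tell whether testicular libraries of the same number share a source. Summed over the family, library 2 was highest in PTM (119300 CPM) and Sertoli cells (104500 CPM). Library 3 was highest in germ (57810 CPM) and Leydig cells (1124 CPM). With the replicate number as a block, PTM over germ cells gave 8 calls, germ over Sertoli cells 7, PTM over Leydig cells 20 and Sertoli over Leydig cells 22, none over 1.5 times from the fit without it. Depth limits the germ cell libraries most, and arms with few counts rest on few tags.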
